A study of Homo sapiens with 22 samples.

Results

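The 10 genes examined encode transcription factors of red blood cells and of blood stem cells: GATA1, GATA2, TAL1, LMO2, KLF1, NFE2, GFI1B, RUNX1, MYB and MECOM. They were followed in peak lists from K562, a human leukaemia line with erythroid features, in which the Wilms' tumour protein WT1 and the histone mark H3K4me3 had been mapped. A peak belonged to a gene if it overlapped the gene or the 10 kb on either side (coordinates of hg19 given to the nearest kb), and the 10 windows together spanned 1178 kb. Of 1311182 peaks on chromosomes 1 to 22, X and Y in 13 lists, 882 fell in these windows.

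All cells carried BirA, a bacterial ligase that adds biotin to a short tag, from a stably transfected plasmid with neomycin selection. WT1 −KTS cells carried in addition a Flag- and biotin-tagged WT1 with its 17 amino acid insert and without the residues lysine, threonine and serine (KTS) between zinc fingers, under an EF1a promoter and with puromycin selection. WT1 +KTS cells carried the same construct with KTS, and untagged cells carried BirA alone. Streptavidin, which holds biotin, captured chromatin from −KTS cells (2 libraries), +KTS cells (3 libraries) and untagged cells (3 libraries), and an antibody to H3K4me3 was used on −KTS cells (3 libraries) and +KTS cells (2 libraries). The tagged protein was expressed from a foreign promoter, and no label says whether a line was 1 clone or a pool, or whether replicates were separate cultures, so the p-values measure the spread between these libraries, which may be technical. There is no H3K4me3 list from untagged cells among the data used here, so the mark could be compared between the isoforms but not with cells lacking tagged WT1.

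GATA1 and GATA2 bind GATA motifs, and GATA1 takes over from GATA2 as red cell precursors mature. TAL1 binds DNA in a complex in which LMO2 is the bridge to GATA factors, and KLF1, NFE2 and GFI1B act with or below this complex on globin and other red cell genes. RUNX1, MYB and MECOM are known for the formation and upkeep of blood stem and progenitor cells. H3K4me3 marks the start regions of active genes. The −KTS form of WT1 binds GC-rich DNA related to the sites of EGR factors, and the +KTS form is known for weaker DNA binding and for contacts with RNA and splicing factors.

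In brief, 7 of the 10 genes carried H3K4me3 within 1 kb of the 5′ end in all 5 libraries, among them the 5 erythroid genes GATA1, TAL1, KLF1, NFE2 and GFI1B, against which the K562 label was checked. WT1 +KTS peaks found in at least 2 of 3 libraries occurred in all 10 windows, where 66.1% of genome tiles of 35 kb, the median window length, held one. WT1 −KTS peaks found in both libraries occurred in 4 windows, at GATA1, LMO2, NFE2 and GFI1B, against 2.06% of tiles. The windows ran from 23 to 601 kb, and longer stretches hold a peak more often than 35 kb tiles do. Tiles were taken over whole chromosomes and were not matched to the windows for genes or for H3K4me3. Untagged cells had no peak in any window, and 1.2% of tiles had one. The H3K4me3 length of the LMO2 window was lower in both +KTS libraries than in all −KTS libraries, which was so in 0.605% of comparable tiles (of the window's own length, with a peak in at least 2 libraries). That of the MECOM window was higher, a direction found in 32.3% of comparable tiles and so near the background.

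The lists differed greatly in length, and this bears on every count. The capture lists held 154732 and 3245 peaks for −KTS replicates 1 and 2, 543203, 373510 and 35455 for +KTS replicates 1, 2 and 3, and 743, 101 and 311 for the untagged replicates. For H3K4me3, −KTS cells gave lists of 33511, 47165 and 38716 peaks, and +KTS cells lists of 27341 and 53149. Read depth is unknown from peak lists, so a missing peak is not evidence of no binding. The lowest score was 50 in lists from −KTS cells and 13 in the others. The H3K4me3 libraries differed in their overlap with WT1 capture. Of all regions that only +KTS replicate 2 called, 67.7% met a WT1 +KTS capture region, the highest share. For regions that only +KTS replicate 1 called it was 56.4%, and for −KTS replicates 1, 2 and 3 it was 1.27%, 8.79% and 35.9%. In the 10 windows, 12 of the 16 private regions of +KTS replicate 2 (75.0%) did so, a share near that of the genome. The overlaps with capture and the cluster widths that use +KTS replicate 2 are also given without it, while +KTS replicate 1 stayed in.

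At the 5′ ends of 6 genes, GATA1, TAL1, KLF1, NFE2, GFI1B and MYB, H3K4me3 in all 5 libraries lay within 1 kb together with a WT1 +KTS region found in at least 2 libraries. The 250 bases before the start site of those with an entry in the RefSeq promoter table are shown here (GRCh38.p14, 5′ to 3′ along the gene), because the 5′ ends of these genes carried both signals. Coordinates were not converted between builds, so where the hg19 peaks fall relative to these stretches was not determined. Where a gene had 2 listed starts, TAL1 is shown at the first, with the second 0.6 kb further into the gene, and GFI1B at the second, which lies 33.2 kb beyond the first. Capitals mark matches to the WT1 and EGR-type letters GCGGGGG and to the GATA-factor letters GATAAG, read on both strands, so that CCCCCGC and CTTATC are matches on the opposite strand.
GATA1, chrX:48786340-48786589, plus strand: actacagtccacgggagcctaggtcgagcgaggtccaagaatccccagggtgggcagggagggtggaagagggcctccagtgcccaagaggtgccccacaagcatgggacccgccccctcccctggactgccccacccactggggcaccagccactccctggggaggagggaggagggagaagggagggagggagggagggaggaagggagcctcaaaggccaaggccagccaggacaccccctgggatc
TAL1, chr1:47232336-47232585, minus strand: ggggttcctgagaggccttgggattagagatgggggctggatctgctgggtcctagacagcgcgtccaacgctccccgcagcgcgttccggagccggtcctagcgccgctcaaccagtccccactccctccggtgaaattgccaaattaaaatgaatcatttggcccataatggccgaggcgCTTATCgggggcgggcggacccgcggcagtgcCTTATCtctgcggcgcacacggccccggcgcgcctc
KLF1, chr19:12887202-12887451, minus strand: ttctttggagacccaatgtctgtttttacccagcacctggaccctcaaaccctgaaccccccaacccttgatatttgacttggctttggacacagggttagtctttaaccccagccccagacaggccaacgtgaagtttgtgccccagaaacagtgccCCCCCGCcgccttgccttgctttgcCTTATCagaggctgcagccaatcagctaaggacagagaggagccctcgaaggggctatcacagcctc
GFI1B, chr9:132978444-132978693, plus strand: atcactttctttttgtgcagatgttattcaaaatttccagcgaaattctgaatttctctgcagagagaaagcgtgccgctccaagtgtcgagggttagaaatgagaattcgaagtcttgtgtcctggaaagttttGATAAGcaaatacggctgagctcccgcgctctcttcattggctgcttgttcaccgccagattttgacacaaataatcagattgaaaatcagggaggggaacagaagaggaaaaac
MYB, chr6:135181058-135181307, plus strand: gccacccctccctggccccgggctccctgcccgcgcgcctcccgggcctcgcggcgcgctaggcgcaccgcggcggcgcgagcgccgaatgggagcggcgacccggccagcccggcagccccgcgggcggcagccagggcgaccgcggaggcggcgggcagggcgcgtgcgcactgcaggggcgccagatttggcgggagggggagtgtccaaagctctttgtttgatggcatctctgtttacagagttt

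The GATA1 and MYB stretches held neither motif, TAL1 held the GATA letters at 2 places, KLF1 held both motifs and GFI1B held the GATA letters. From 250 bases before to 50 after each start, 8 of the 10 genes had 13 promoters in the table. GCGGGGG occurred in 5 of the 13, at GATA2, KLF1, RUNX1 and MECOM, against 17.03% of all 35116 promoters. GCGTGGG, the letters of the shared EGR site, occurred in none of the 13, against 6.98% of all. TCCTCCTCC occurred in 1, at MYB beyond the start site, against 3.77% of all, and GATAAG in 4, at TAL1, KLF1, GFI1B and MECOM, against 6.36%. GATAAG was added after the sequences had been seen. None of these motifs overlaps another in its letters, overlapping copies of TCCTCCTCC were counted, and a match is not a binding site.

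**Figure D1:**
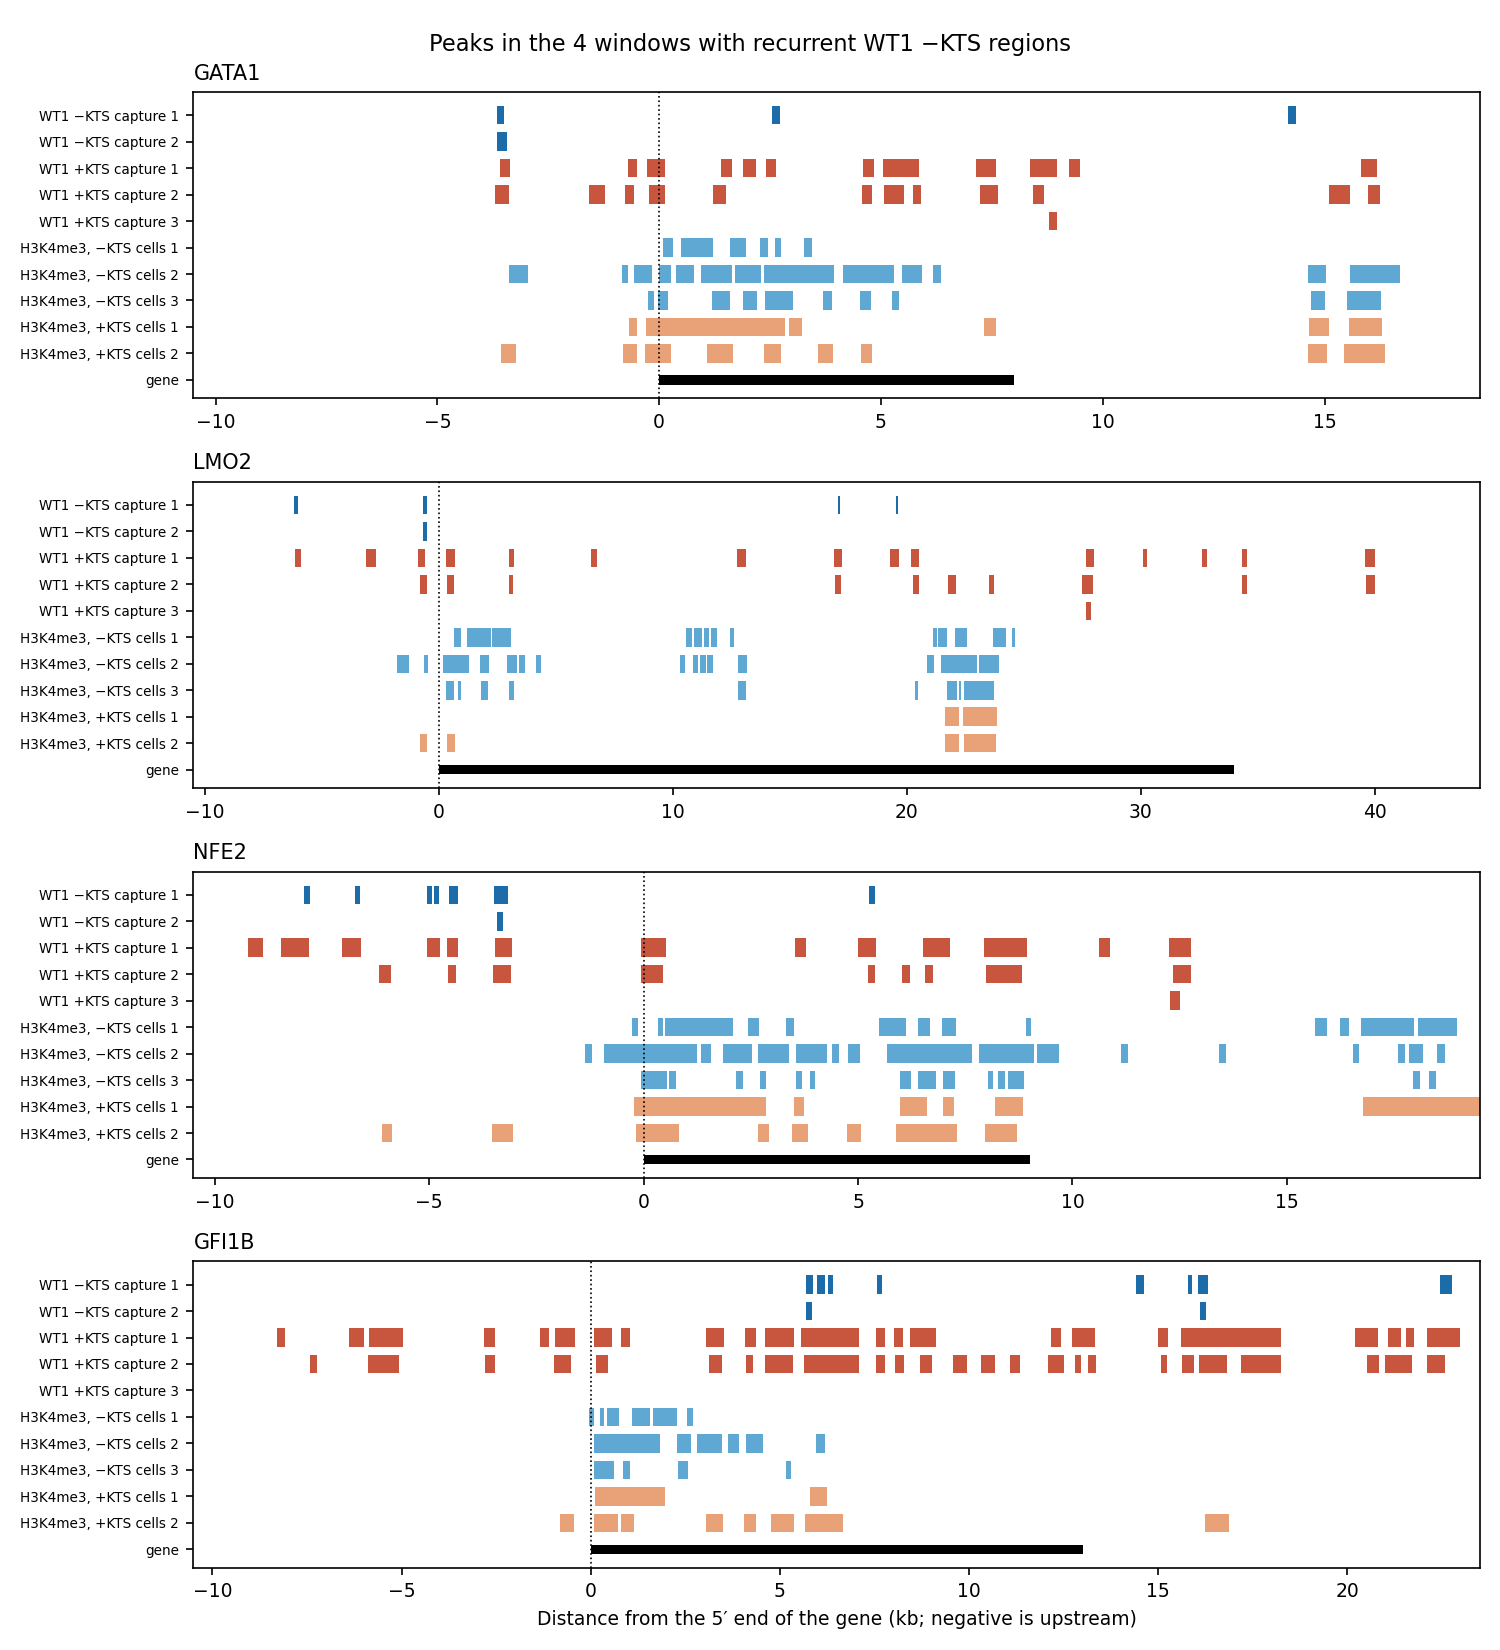
Peaks of each tagged capture library (dark blue for −KTS, red for +KTS) and each H3K4me3 library (light blue for −KTS cells, orange for +KTS cells) in the GATA1, LMO2, NFE2 and GFI1B windows, by distance in kb from the 5′ end. The black bar is the gene and the dotted line its 5′ end, and all 5 sites called in both −KTS libraries also have a peak in +KTS replicates 1 and 2.

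WT1 −KTS peaks were found in both libraries at 5 sites. In the genome, merged regions called in both −KTS libraries and meeting no untagged peak numbered 2022. They occurred in 2.06% of tiles of 35 kb, the median window length, and here in 4 of 10 windows. The windows ran from 23 to 601 kb, and longer tiles hold a peak more often. Tiles were also not matched for genes or for H3K4me3, of which the windows hold more than the genome. For −KTS replicate 2, 19.1% of tiles of the RUNX1 length and 32.1% of the MECOM length held one. Over the 10 windows, such shares at each window's own length summed to 0.782, where 4 windows held a peak of that library. Each of the 5 sites also met a +KTS region found in at least 2 libraries, against 47.0% of such −KTS regions in the genome. None of the 5 was called in +KTS replicate 3. Scores are those the authors deposited and serve only to rank peaks inside 1 list.

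At LMO2, the adaptor that joins TAL1 to GATA factors, the shared −KTS site was chr11:33914506-33914697 on hg19, 192 bp wide and centred 0.6 kb upstream of the 5′ end. Its score was 387 in −KTS replicate 1, above 99.8% of that list, and 430 in replicate 2, above 92.4%. In +KTS replicates 1 and 2 its scores were 94 and 73, above 83.2% and 63.0% of those lists. LMO2 was the one gene with such a −KTS region within 1 kb of its 5′ end, where H3K4me3 was called in 4 of 5 libraries. Of the 7 genes with H3K4me3 there in all 5 libraries 0 had one, against 5.45% of positions with such a mark. H3K4me3 peaks overlapped the site in −KTS replicate 2 and +KTS replicate 2 and in no other library.

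GATA1, the master regulator of red cell genes, had its site 3.54 kb upstream, at chrX:48641348-48641575. Scores were 115 and 292 in −KTS replicates 1 and 2, above 66.7% and 83.1% of their lists, and 72 and 106 in +KTS replicates 1 and 2. The higher of the −KTS ranks came from the short list. With all tagged lists cut to 3245 peaks, GATA1 no longer had a shared −KTS site, while LMO2, NFE2 and GFI1B did. Without the 10 kb flanks, GFI1B alone had one. NFE2, a subunit of a globin-activating leucine zipper factor, had a site at chr12:54698168-54698479, 3.32 kb upstream. Its scores were 238 in −KTS replicate 1 (above 99.0% of the list), 144 in replicate 2 (above 46.9%), and 72 and 151 in +KTS replicates 1 and 2. So the NFE2 site ranked among the best in one −KTS list and near the middle of the other.

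GFI1B, a zinc finger repressor needed for red cells and platelets, had 2 sites. The first, chr9:135859687-135859877, lay within the gene 5.78 kb from the 5′ end and scored 274 and 176 in −KTS replicates 1 and 2 (above 99.4% and 59.7%) and 109 and 107 in +KTS replicates 1 and 2. The second, chr9:135870056-135870314, lay beyond the 3′ end, 16.18 kb from the 5′ end. It scored 297 and 231 in the −KTS libraries (above 99.5% and 74.1%) and 134 and 50 in +KTS replicates 1 and 2. In the longer −KTS list, that of replicate 1, 4 of the 5 sites thus ranked above 99.0% of peaks or more. The sites were picked because the much shorter list of replicate 2 also held them. How all such regions of the genome rank in replicate 1 was not computed, so these ranks have no background.

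An H3K4me3 peak of +KTS replicate 2 overlapped all 5 sites, against 57.7% of such −KTS regions in the genome. Peaks of +KTS replicate 1 overlapped the first GFI1B site (54.0% in the genome), those of −KTS replicate 2 the LMO2 site (46.7%), and those of −KTS replicates 1 and 3 none (14.2% and 47.7%). The library of the full overlap is the one whose private regions met WT1 capture regions most often, and its part in these overlaps was not tested. By merged regions called in at least 2 libraries, H3K4me3 met 3 of the 5 sites, against 58.3% in the genome, and 1 of 5 without +KTS replicate 2, against 54.7%. Of 50 such H3K4me3 regions in the windows, 3 (6.0%) met a shared −KTS region, against 4.05% of 28936 in the genome, and without H3K4me3 +KTS replicate 2 the number was 1, as it was without −KTS replicate 2.

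Single-library −KTS peaks were far more common. Replicate 1 had 59 peaks in the windows, at least 2 in each, covering 0.810% of the windows and 0.807% of the genome. Of these, 33 (55.9%) met a +KTS region, against 40.0% of its whole list. Replicate 2 had 5 peaks in 4 windows, covering 0.0690% of the windows against 0.0178% of the genome, and these are the 5 sites above. All 5 met a +KTS region, against 38.1% of that list. With replicate 1 as the single −KTS list all 10 windows would count, and with replicate 2 as the single list 4.

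**Figure D2:**
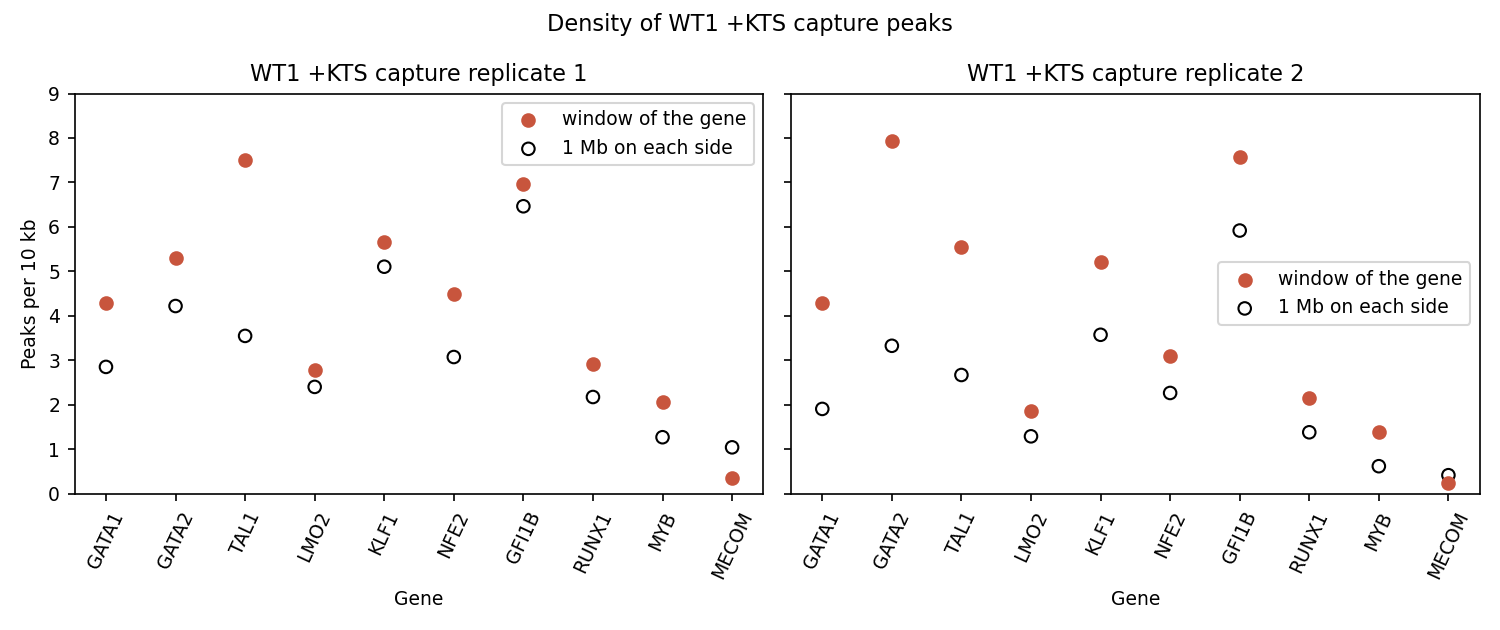
Peaks per 10 kb of WT1 +KTS replicates 1 and 2 in each gene window (filled points) and in the 1 Mb on each side of it (open points). GFI1B and TAL1 are at 6.97 and 7.50 in replicate 1, and MECOM, at 0.366, lies below its surroundings in both libraries while the other 9 lie above.

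WT1 +KTS regions, called in at least 2 of 3 libraries and meeting no untagged peak, numbered 143 in the windows. All 10 windows held one, but so did 66.1% of 35 kb tiles, and several windows are longer than that. Upstream of the 5′ ends lay 24, within the genes 93, and beyond the 3′ ends 26. These parts differ in length. Each flank is 10 kb, while the genes run from 3.0 kb (KLF1) to 581 kb (MECOM) and make up most of the windows. The 3 counts are therefore not densities. H3K4me3 called in at least 2 libraries overlapped 37 of the 143 (25.9%), against 6.43% of the 285002 such +KTS regions in the genome. The windows also hold more H3K4me3 than the genome, by 4.19-fold to 7.43-fold in covered length. Without H3K4me3 +KTS replicate 2 the overlap was 30 of 143, against 5.42%. From the other side, 30 of the 50 H3K4me3 regions (60.0%) met a +KTS region, against 54.9% in the genome, and 23 of 41 (56.1%) against 52.1% without that library.

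The density of these regions varied widely among the genes. It was highest at GFI1B, with 5.46 per 10 kb, followed by GATA2 with 4.71, TAL1 with 4.44, GATA1 with 3.21, KLF1 with 3.04 and NFE2 with 2.41. RUNX1 had 1.88, LMO2 1.48, MYB 0.690 and MECOM 0.083, where the genome had 0.921. Part of this order followed the neighbourhood. In +KTS replicate 1, GFI1B had 6.97 peaks per 10 kb and the 1 Mb on each side 6.46, KLF1 5.65 and 5.11, and MECOM 0.366 and 1.05. TAL1 stood further from its surroundings, at 7.50 against 3.55, and in replicate 2 GATA2 did, at 7.94 against 3.33.

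The third +KTS library had 9 peaks in the windows, of which 7 (77.8%) met a peak of replicate 1 or 2, against 90.7% of its list. A peak of this library occurred in 28.3% of 35 kb tiles and in 80.1% of tiles of the RUNX1 window's length. Regions in all 3 libraries numbered 7, in 4 windows, where 18.2% of 35 kb tiles held one. They lay at GATA1 (chrX:48653372-48653978, just beyond the 3′ end), LMO2 (chr11:33886007-33886486, within the gene), NFE2 (chr12:54682243-54682756, beyond the 3′ end) and, 4 of them, RUNX1. The RUNX1 regions were chr21:36159530-36160419 at the 3′ end, chr21:36352076-36352389 and chr21:36364998-36365470 within the gene, and chr21:36424745-36425168, 2.96 kb upstream. None of the 7 overlapped an H3K4me3 peak of any library, and none met a shared −KTS region, although −KTS replicate 1 had a peak at the first and the last RUNX1 region. Their ranks varied widely. In replicate 3 they ranked above 2.9% to 64.5% of the list, in replicate 1 above 24.8% to 97.2% and in replicate 2 above 8.1% to 96.3%.

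Tagged and untagged capture could be set against each other window by window. In GATA1 the covered lengths were 488 and 228 bp in −KTS replicates 1 and 2 and 4336, 3881 and 195 bp in +KTS replicates 1, 2 and 3. In LMO2 they were 530 and 163 bp, and 4743, 2905 and 208 bp. In NFE2 they were 1127 and 133 bp, and 6072, 3199 and 225 bp. These are the 3 windows in which every tagged library had a peak, and the untagged libraries were at 0 in all 10. The exact two-sided permutation p was 0.0357 in each of the 3, the smallest that 5 against 3 libraries allow, and 1.47% of all tiles, or 1.93% of tiles with a peak in at least 2 libraries, showed this separation. In the other windows the exact permutation p lay between 0.143 and 0.357. The untagged lists are short, and an untagged peak of any of the 3 occurred in 1.2% of tiles, so a count of 0 in 10 windows is near the background.

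Between the isoforms, +KTS capture covered more on average in every window, by 4.44-fold (MECOM) to 54.0-fold (GATA2), yet the ranges overlapped in all 10. The whole lists differ in the same way. Of the genome, +KTS replicates 1, 2 and 3 covered 6.64%, 3.87% and 0.278%, and −KTS replicates 1 and 2 covered 0.807% and 0.0178%. The GATA2 ratio rests on 206 and 0 bp in −KTS replicates 1 and 2. They did not overlap in 10.9% of all tiles and in 14.3% of tiles with a peak in at least 2 libraries. The exact two-sided permutation p was 0.4 or 0.6, where 0.2 is the smallest that 3 against 2 libraries allow. In every window +KTS replicates 1 and 2 were above both −KTS libraries, and +KTS replicate 3 was below −KTS replicate 1.

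**Figure D3:**
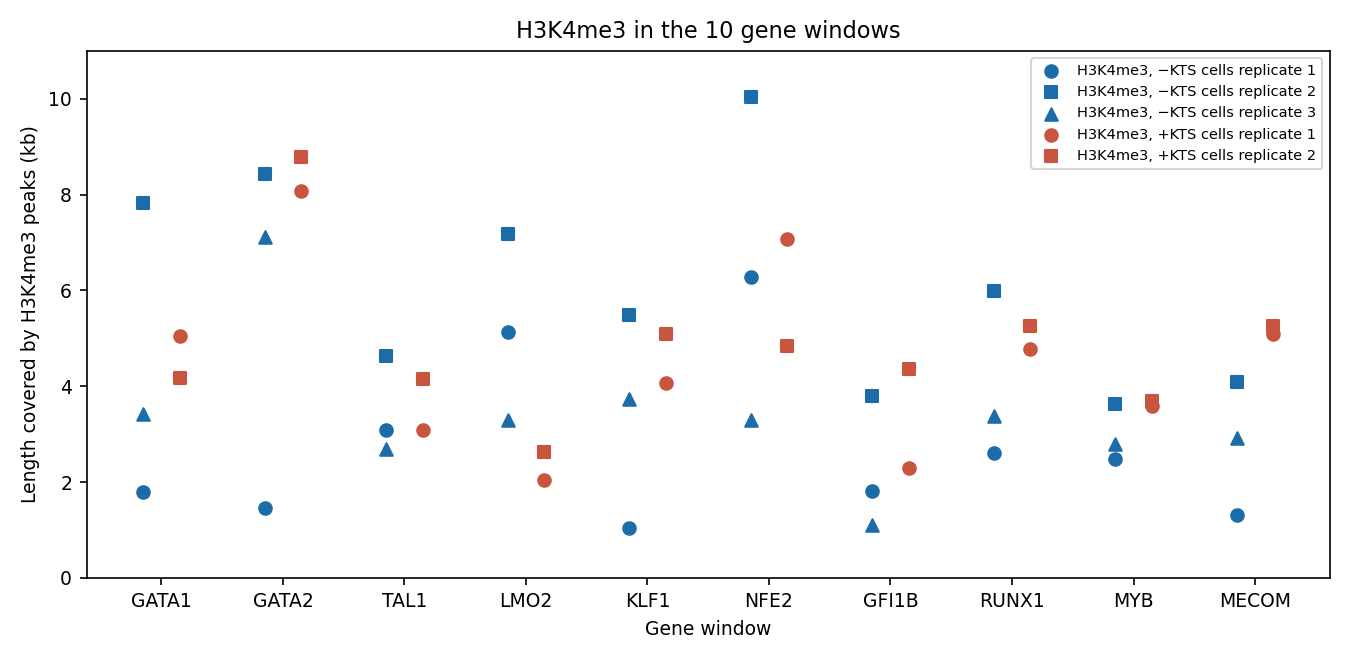
Length in kb covered by H3K4me3 peaks in each gene window, with 1 point per library (blue for −KTS cells, red for +KTS cells). The cell types separate at LMO2, where −KTS cells are higher, and at MECOM, where +KTS cells are higher.

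H3K4me3 covered more of the windows than of the genome in every library, by 7.43-fold, 6.87-fold and 5.16-fold in −KTS replicates 1, 2 and 3 and by 5.36-fold and 4.19-fold in +KTS replicates 1 and 2. Of 96 merged H3K4me3 regions in the windows, 19 (19.8%) were called in all 5 libraries, against 16.2% of the 72310 in the genome, and 46 (47.9%) in 1 library, against 60.0%. The 7 genes with the mark within 1 kb of the 5′ end in all 5 libraries were GATA1, TAL1, KLF1, NFE2, GFI1B, RUNX1 and MYB. Among positions taken every 1 kb along the genome, 0.985% had this. These positions were not picked at gene starts, and the share among all gene starts was not computed. LMO2 had it in 4 libraries, lacking it in +KTS replicate 1, and MECOM in 4, lacking it in −KTS replicate 1. GATA2 had it in none, because its mark began 1.21 kb inside the gene. A +KTS region found in at least 2 libraries lay within 1 kb of the 5′ end of 7 genes (all but GATA2, RUNX1 and MECOM), against 17.5% of positions. Of the 7 genes with the mark in all 5 libraries 6 had one, RUNX1 being the exception, against 61.5% of positions with such a mark.

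**Figure D4:**
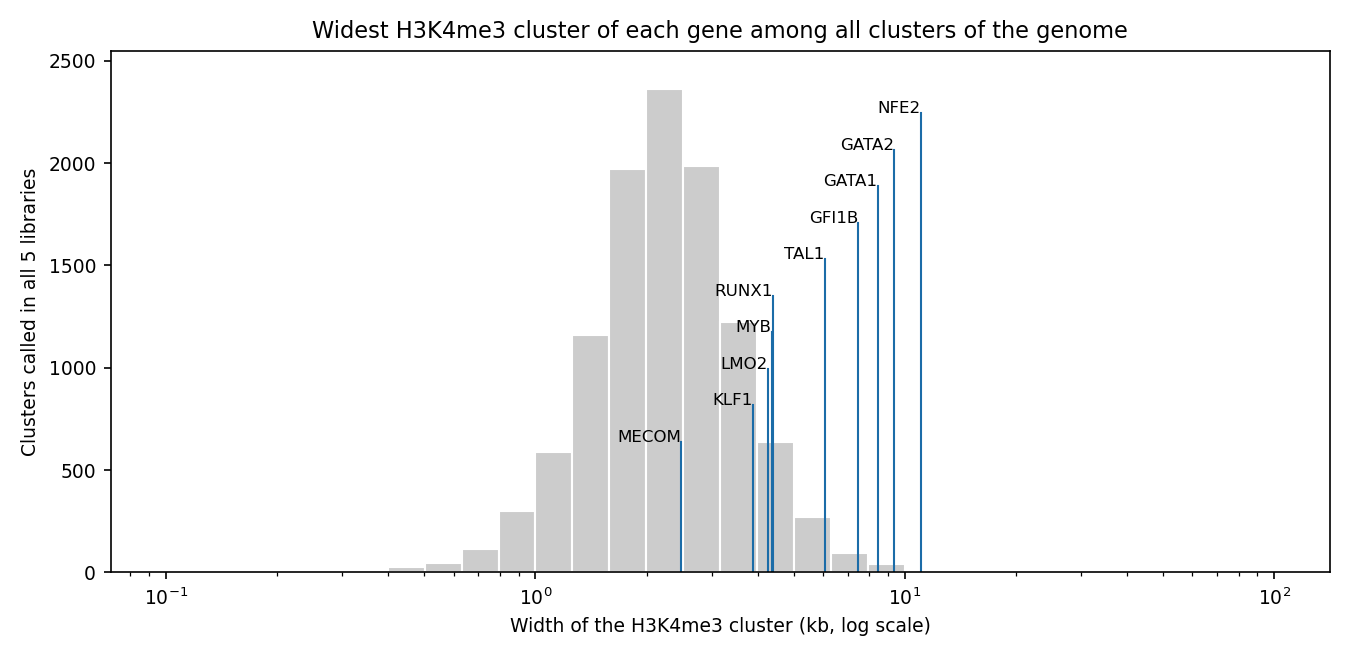
Widths in kb (log scale) of the 10838 H3K4me3 clusters of the genome called in all 5 libraries (grey bars), with the widest such cluster of each gene as a blue line whose height carries no value. GATA1, GATA2, NFE2 and GFI1B lie in the upper tail, and MECOM near the middle.

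Most of the genes held a wide H3K4me3 cluster. H3K4me3 peaks of all libraries less than 1 kb apart were joined into clusters, and 10838 clusters of the genome (21.4% of all) had peaks of all 5 libraries, with a median width of 2.24 kb. The NFE2 cluster was 11.05 kb wide, wider than 99.9% of them, and ran from 1.36 kb before the 5′ end past the 3′ end. GATA2 had 9.35 kb (wider than 99.8%), GATA1 8.43 kb (99.6%), GFI1B 7.47 kb (99.4%) and TAL1 6.06 kb (98.3%). RUNX1 had 4.39 kb (93.2%), MYB 4.36 kb (93.0%), LMO2 4.25 kb (92.5%) and KLF1 3.87 kb (89.1%). MECOM had 2.48 kb (59.2%). These are the widest cluster of each gene, and a widest of several tends to rank high against all clusters. RUNX1 had a second one, at its 5′ end, of 2.56 kb (62.6%). Without H3K4me3 +KTS replicate 2, KLF1 had 3.17 kb (82.3%) and GFI1B 6.3 kb (98.9%), and the other 8 widths were the same. KLF1 spans 3.0 kb in all, so its cluster covered the whole gene. A cluster joins the peaks of every library, and single libraries covered less of it: in the GATA1 cluster 1801, 5884 and 2341 bp in −KTS cells and 3860 and 2503 bp in +KTS cells. −KTS replicate 2 covered the most there and replicate 1 the least.

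GATA2, active in stem and early progenitor cells, carried its cluster from 1.21 to 10.57 kb inside the gene. The RefSeq table lists a second start 4.7 kb beyond the first. Window lengths were 1460, 8421 and 7111 bp in −KTS replicates 1, 2 and 3 and 8075 and 8773 bp in +KTS replicates 1 and 2, so −KTS replicate 1 was the low library. A region in both +KTS libraries and no −KTS library lay 3.27 kb upstream of GATA2 and another 20.2 kb from the 5′ end of TAL1, beyond the gene. Such regions made up 2 of the 96 H3K4me3 regions of the windows and 2.06% of those of the genome. TAL1 itself covered 3089, 4629 and 2691 bp in −KTS cells and 3079 and 4159 bp in +KTS cells, which overlap.

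LMO2 differed between the cell types. Its window had 5123, 7181 and 3290 bp of H3K4me3 in −KTS replicates 1, 2 and 3 (mean 5198 ± 1947, SD, n = 3) and 2035 and 2635 bp in +KTS replicates 1 and 2 (2335 ± 424, SD, n = 2). All −KTS libraries were above both +KTS libraries, and the +KTS mean was 0.449 times the −KTS mean. The exact two-sided permutation p was 0.2, the smallest that 3 against 2 libraries allow. Across the genome, −KTS libraries stood above +KTS libraries in this way in 0.153% of 35 kb tiles, in 0.661% of tiles with a peak in at least 2 libraries, and in 0.605% of such tiles of the LMO2 window's own length. Any separation, in either direction, was found in 6.77% of tiles and in 29.3% of those with a peak in at least 2 libraries, most of it with +KTS higher.

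Within LMO2 the difference lay at some of its H3K4me3 clusters and not at others. The cluster from 20.36 to 24.61 kb into the gene covered 1751, 2734 and 1954 bp in −KTS cells and 2035 and 1950 bp in +KTS cells, which overlap. The cluster at the 5′ end covered 2126, 3151 and 981 bp in −KTS cells and 0 and 685 bp in +KTS cells. One between them, from 10.31 to 13.17 kb, covered 1246, 1296 and 355 bp in −KTS cells and was not called in +KTS cells. The 5′ end cluster spans the shared −KTS site described above. At 2.81 kb into the gene (chr11:33910661-33911724) a region was called in all 3 −KTS libraries and neither +KTS library, as was one 2.5 kb into GFI1B (chr9:135856289-135856716). These were 2 of 96 regions, against 0.306% of the 72310 in the genome. The −KTS lists start at a higher score. When peaks scoring under 50 were dropped from all lists, LMO2 and MECOM were again the 2 windows that separated, in the same directions. The −KTS lists hold no peak under 50, so this step could only shorten the +KTS lists. It could therefore not undo a separation with −KTS higher, and it is no check of the LMO2 difference.

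**Figure D5:**
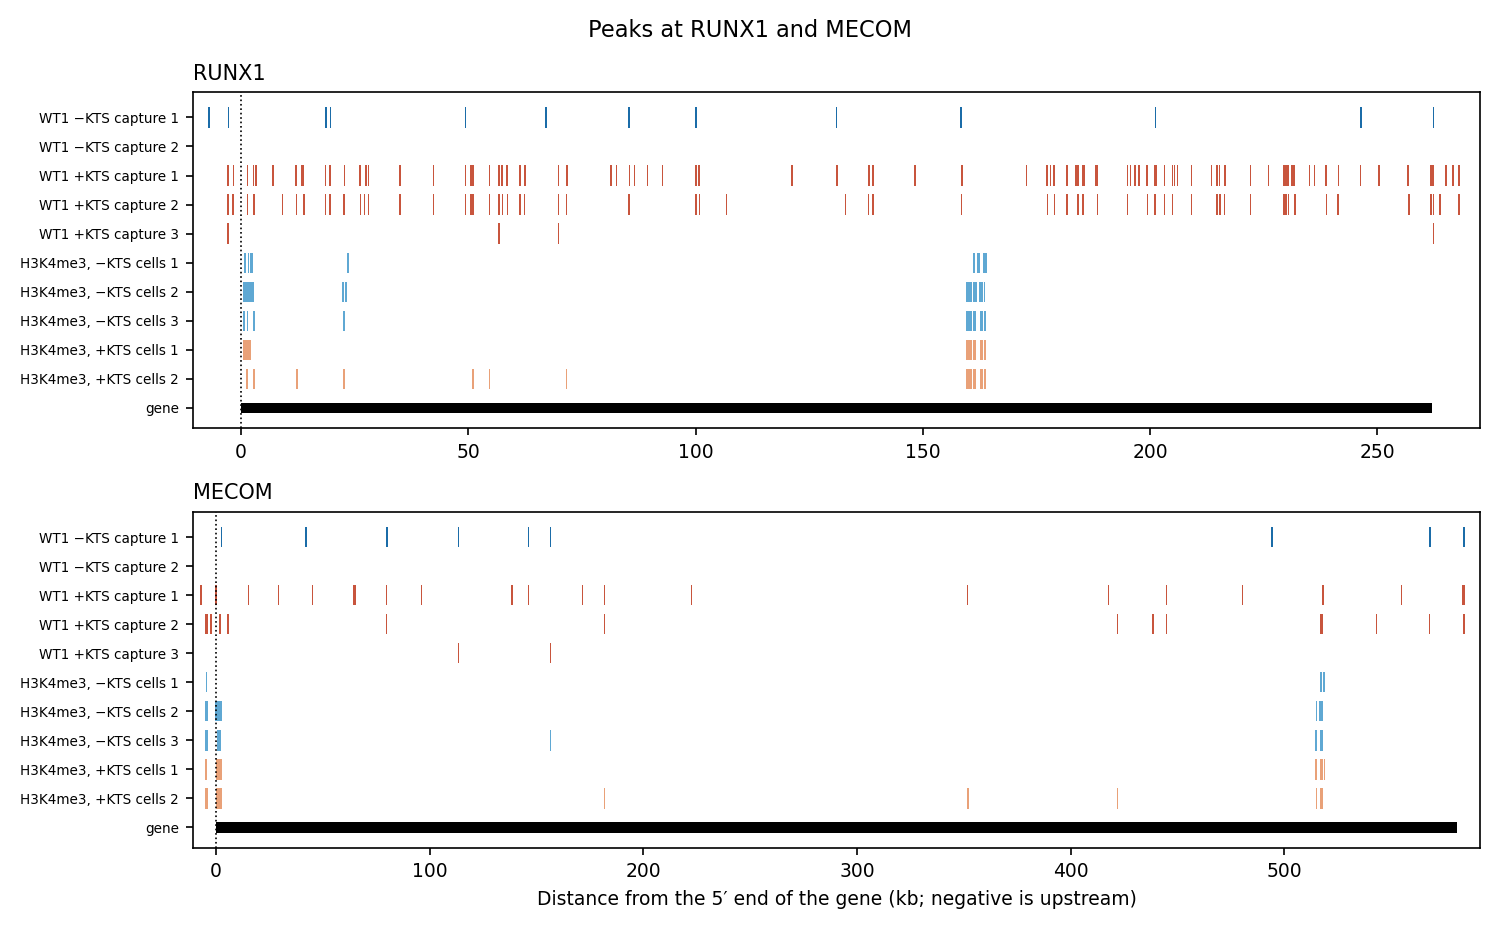
Peaks of each tagged capture and H3K4me3 library in the RUNX1 and MECOM windows, by distance in kb from the 5′ end, with the gene as a black bar. H3K4me3 sits at the 5′ end and at an inner site of each gene (161.67 kb in RUNX1, 517.5 kb in MECOM), while +KTS capture is spread over RUNX1 and sparse over MECOM.

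RUNX1 and MECOM, the longest of the genes, each had H3K4me3 at 2 distant places. RUNX1, a core-binding factor subunit transcribed from a pair of promoters, had a cluster of 2.56 kb at the 5′ end and one of 4.39 kb, 161.67 kb into the gene. The first covered 1436, 2276 and 551 bp in −KTS cells and 1623 and 1034 bp in +KTS cells, and the second 1079, 3205 and 2648 bp and 3151 and 2999 bp. The inner cluster was covered more than the outer one in −KTS replicates 2 and 3 and both +KTS libraries, and less in −KTS replicate 1. The gene carried 53 +KTS regions, 3 of them at H3K4me3 called in at least 2 libraries. The best peak of +KTS replicate 1 lay 229.8 kb into the gene (above 99.2% of its list), that of replicate 2 lay 1.77 kb upstream (above 98.6%), and −KTS replicate 1 had its best at 100.02 kb (above 98.5%).

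MECOM, whose inner promoter gives the EVI1 protein of stem cells and leukaemias, had a 5′ cluster of 2.85 kb and an inner one of 2.48 kb, 517.5 kb into the gene. RefSeq lists MECOM starts 516.2 and 517.2 kb beyond the first on GRCh38.p14. The 5′ cluster covered 0, 1800 and 1304 bp in −KTS cells and 2379 and 2004 bp in +KTS cells, and the inner one 1115, 1505 and 748 bp and 1694 and 1240 bp. At the 5′ end the cell types did not overlap, and at the inner site they did. The share of genome clusters that separate in this way was not computed. So the 5′ end cannot be singled out as the place of a difference. Over the whole window +KTS cells had 5099 and 5247 bp (mean 5173 ± 105, SD, n = 2) and −KTS cells 1319, 4081 and 2917 bp (2772 ± 1387, SD, n = 3). The exact permutation test gave a two-sided p of 0.2, again the smallest possible. The +KTS libraries stood above the −KTS libraries in 6.62% of 35 kb tiles, in 28.7% of those with a peak in at least 2 libraries and in 32.3% of such tiles of the MECOM window's own length, so the MECOM difference is of a common kind. WT1 capture was thin, with 22, 15 and 2 peaks in +KTS replicates 1, 2 and 3 over 601 kb and 9 and 0 in −KTS replicates 1 and 2.

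The remaining 8 windows showed no separation of H3K4me3 length. Ratios of the +KTS to the −KTS mean ran from 0.912 at NFE2 to 1.49 at GATA2 and GFI1B, with exact permutation p-values between 0.4 and 1.0. KLF1, an activator of adult beta-globin, had 1038, 5488 and 3738 bp in −KTS cells and 4075 and 5081 bp in +KTS cells. NFE2 had 6271, 10045 and 3285 bp and 7080 and 4835 bp, and GFI1B 1811, 3800 and 1095 bp and 2290 and 4358 bp. The spread among −KTS libraries was wide in all 3, with replicate 2 highest. Without −KTS replicate 2, 8 windows would separate, 7 of them with +KTS higher, and without +KTS replicate 1, 5 would. Separation is easier to reach with 1 library fewer. The share of genome tiles that separate at these settings was not computed, so these counts have no background.

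MYB, a progenitor factor that falls as red cells mature, had the most uniform mark. Its window covered 2479, 3633 and 2785 bp in −KTS cells and 3579 and 3682 bp in +KTS cells, nearly all of it in 1 cluster of 4.36 kb at the 5′ end. WT1 capture at MYB was light, with 12, 8 and 0 peaks in +KTS replicates 1, 2 and 3 and 2 and 0 in −KTS replicates 1 and 2. The best +KTS peaks of replicates 1 and 2 fell at the same place, 15.0 kb into the gene, above 87.0% and 88.1% of their lists.

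The best capture peaks of TAL1, KLF1 and GATA2 ranked from low to high in their lists. At TAL1 the best peak of +KTS replicate 2 lay 3.5 kb into the gene, above 99.4% of its list, and that of replicate 1 lay 20.18 kb from the 5′ end, above 98.0%. The best −KTS replicate 1 peak at TAL1 lay 2.95 kb into the gene, above 97.2%. At KLF1 the best +KTS peaks of replicates 1 and 2 lay 6.46 and 6.45 kb upstream, above 61.0% and 97.9% of their lists, so the same place ranked differently in the 2 libraries, and its best −KTS replicate 1 peak ranked above 26.6%. At GATA2 the best +KTS peak of replicate 1 lay 6.0 kb upstream (above 88.7%) and that of replicate 2 lay 20.51 kb from the 5′ end (above 89.7%), while −KTS replicate 1 had 2 low-ranking peaks, the better above 7.1% of its list. A best peak is picked as the highest of several, so its rank tends to be higher where a window holds more peaks.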

How the data were processed

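The data were 13 peak lists from K562 cells, 1 per library. The 9 input libraries were not analysed here. The submitters' processing notes name Bowtie2 2.2.7, MACS2 2.1.1.20160226 and the build hg19. Which control, filters and threshold were used is not given in the sources used here. In each list the authors deposited a position and a whole-number score for every peak. The −KTS cells' lists are named as pooled, without saying of what.

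The members, lists and tests were chosen with earlier results of these data known. Peaks overlapped when they shared 1 bp. Regions named were those nearest to the 5′ end with H3K4me3, those called in both −KTS libraries, in both isoforms or in all 3 +KTS libraries, and the best-scoring capture peak per library. Covered lengths were compared by two-sided exact permutation tests, and no p was computed over the genes together. Background values came from tiles of 35 kb over the chromosomes, whose length was taken as the largest peak end. Gene strands came from general knowledge and were checked against the RefSeq table for 8 genes. Neighbouring genes and promoter sequences came from RefSeq (GRCh38.p14), and no coordinates were converted. An annotation or genome of hg19 was not used here, so exons, the sequences of the capture sites and a planned list of other blood factors were not analysed. Alternatives were a score of at least 50, equal lists, flanks of 0 and 50 kb, other overlap and recurrence rules, leaving out each library and pairing by replicate number. The overlaps and widths without H3K4me3 +KTS replicate 2 were added after seeing the data. Python 3.11.15, numpy 2.4.6, pandas 2.3.3, scipy 1.17.1 and matplotlib 3.10.9 were used, scripts were tested on simulated data, and overlaps were checked with bedtools 2.31.1.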

Additional observations from a re-analysis of the deposited data

How the results depend on the processing

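The 4 windows with a shared −KTS region were 3 with lists of equal length (3245 peaks, GATA1 lost), 1 without flanks (GFI1B) and 5 with flanks of 50 kb (KLF1 added), and leaving out 1 library gave 4 to 10. The 10 windows with a +KTS region became 0 with equal lists and 4 when all 3 libraries were required, and 3 to 10 with 1 library left out, the lowest without +KTS replicates 1 (3) and 2 (4). The 7 genes with H3K4me3 at the 5′ end in all 5 libraries became 1 when the mark had to cover the end itself, a position known only to 1 kb, 9 within 5 kb, and 7 to 8 with 1 library left out. The 3 H3K4me3 regions meeting a −KTS region were 1 with equal lists, 1 without flanks, 6 with 50 kb flanks and 1 to 8 with 1 library left out, the 8 without −KTS capture replicate 2. The 30 meeting a +KTS region were 14 with a score of at least 50, 0 with equal lists, 0 when all 3 libraries were required and 0 to 31 with 1 library left out. The 2 windows of separated H3K4me3 length ranged from 2 to 8 with 1 library left out, and the share of tiles at these settings was not computed. With the replicate block, replicates 1 and 2 were paired across cells, and 6 windows moved the same way in both pairs. In 4 of them +KTS was higher (GATA2, GFI1B, MYB, MECOM) and in 2 −KTS was higher (TAL1, LMO2). Agreement in direction over only 2 pairs is easily reached, and its share among genome tiles was not computed. The correlations of same-numbered libraries' deviations were 0.239 and 0.1 over 20410 tiles. That of −KTS replicate 3 with +KTS replicate 2 was 0.241, so the values do not single out libraries of the same number. With 2 pairs the libraries share only a number. The cause of these changes was not tested, but some follow from the rules. Shorter lists or narrower windows hold fewer peaks by construction. With 1 −KTS capture library left out, a call in the remaining 1 was enough. With 1 +KTS capture library left out, both remaining ones had to call a region. Rules that ask for all H3K4me3 libraries, or for full separation of the cell types, are easier to meet with 1 library fewer. Depth is unknown, so how far it limits the counts cannot be stated.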

Other observations

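The flanks of some windows held H3K4me3 clusters outside the gene. The side is named here by the next protein-coding gene in RefSeq, and which gene a cluster belongs to was not determined. On the HDAC6 side of GATA1 a cluster 15.66 kb from the GATA1 5′ end covered 0, 1518 and 1075 bp in −KTS replicates 1, 2 and 3 and 1183 and 1340 bp in +KTS replicates 1 and 2. On the HNRNPA1 side of NFE2 one of 8.17 kb covered 5516, 3289 and 1273 bp and 5509 and 1833 bp. KLF1 had one on the GCDH side (0, 1450 and 1062 bp, and 1059 and 1629 bp) and one on the DNASE2 side (120, 1065 and 765 bp, and 656 and 970 bp). On the ACTRT3 side of MECOM, one 4.51 kb upstream covered 204, 587 and 524 bp in −KTS cells and 784 and 1010 bp in +KTS cells, which do not overlap. How often clusters of the genome separate in this way was not computed. In the GATA1, KLF1 (both sides) and MECOM clusters, −KTS replicate 1 was the lowest of the 5 libraries. These GATA1, KLF1 and MECOM clusters enter the window totals above, and the MECOM total includes the ACTRT3 side. The NFE2 cluster runs past the edge of its window, to 23.81 kb from the 5′ end. Its lengths here are for the whole cluster, and only what lies inside the window enters the NFE2 total.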
